A study of Danio rerio with 6 samples.

Results

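The zebrafish granulin genes *grn1*, *grn2*, *grna* and *grnb* were compared between the ventricles of old and young fish. These 4 genes, of 32520 in the count table, were picked by symbol and had been selected on the same contrast of old against young, so their values are given as a description and carry no test. Each of the 4 had reads in every library. Granulins are small cysteine-rich proteins, and a progranulin carries several of them in tandem in one secreted precursor. *grna* and *grnb* encode the progranulins, and *grn1* and *grn2* encode short forms with far fewer granulin repeats.

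Progranulin is taken up and sorted to the lysosome, in mammals by the receptor sortilin or together with prosaposin, and lysosomal and extracellular proteases cut it into single granulins. In mammals it is abundant in macrophages and microglia, where it is known for keeping lysosomes working and for restraining inflammation, and it acts as a growth factor in wounds. In the zebrafish, *grna* is mainly known from blood cells of the myeloid lineage and *grnb* from many tissues.

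The RNA-Seq data came from heart ventricles of wild-type fish of crossed AB and TU background, with 3 libraries of old fish (4 years, replicates 1, 3 and 5) and 3 of young fish (7 months, replicates 1, 2 and 5). No mutant, transgene or treatment was part of either group, and the samples of each age had been picked from a larger set by RNA integrity. The sources do not say if each library was made from 1 ventricle or from several. If ventricles were pooled, the SDs given here would understate the spread between single fish. In either case the spread between libraries may be partly technical. The age groups were compared to find genes whose expression in the heart changes with age.

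Total counts per library ranged from 17742389 to 22547518. Values are given in CPM, that is, as counts scaled by the size of the library after correction with edgeR's TMM factor. A count of 0 allows up to 3 counts, or 0.124 to 0.161 CPM depending on the library, for counting error only. Log CPM of any pair of libraries correlated with Pearson's r from 0.916 to 0.971 across the 13262 genes with a mean of at least 1 CPM, which are not independent replicates. Cardiac muscle was present in all libraries, as the myosin light chain gene *MYL7*, which both chambers express, had a mean of 23000 CPM in old and 22700 CPM in young ventricles, and 0 of 10 cardiomyocyte markers passed edgeR's test (0 higher and 2 lower at an unadjusted p under 0.05, 0 in DESeq2). Of the atrial genes, *myh6*, the atrial myosin heavy chain gene, had 301 CPM in young replicate 1 against 6.13 to 31 CPM in the other libraries, and the transcription factor gene *NR2F1* (ENSDARG00000052695) had 13.9 against 0.715 to 2.89 CPM. Young replicate 1 thus stood apart in some atrial genes but not in all. *TBX5* was also highest there, at 57 against 18.9 to 30.2 CPM. *nppa* (2660 against 2430 to 4360 CPM) and *NR2F2* (31.8 against 23.4 to 35.5 CPM) lay within the range of the other libraries. The other copy of *NR2F1* had at most 0.272 CPM in any library. Values without young replicate 1 are given with *grn1*, *grn2* and *grna*. All these atrial genes were named after their values had been seen. Over all genes, 213 of the 24835 tested (0.858%) passed an adjusted p of 0.05 in edgeR's quasi-likelihood test (Benjamini-Hochberg).

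*grn1* (ENSDARG00000089362) encodes the first of the short granulins and had the largest fitted fold change of the granulin genes, though not the largest difference in CPM. With DESeq2's shrunken fold changes the order was another, with log2 values of 1.98 for *grn2*, 1.48 for *grna* and 1.26 for *grn1*. It had 1213, 283 and 889 counts in old replicates 1, 3 and 5, and 73, 30 and 4 counts in young replicates 1, 2 and 5. These were 55.0, 15.2 and 36.7 CPM in old and 3.65, 1.45 and 0.204 CPM in young ventricles. The groups did not overlap, and the lowest old library held 4.15 times the CPM of the highest young one. The mean was 35.6 ± 19.9 CPM in old against 1.77 ± 1.75 CPM in young ventricles (SD, n = 3 each), a 20.1-fold ratio and a fitted log2 fold change of 4.33 (SE 0.78). By log2 fold change *grn1* held rank 47 among the 13262 genes with at least 1 CPM. Young replicate 5, with 4 counts, was close to the limit of detection, so the size of the fold rests on few reads there. Leaving out each library in turn gave log2 fold changes from 3.8 (without young replicate 5) to 5.42 (without young replicate 1).

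*grn2* (ENSDARG00000088641) encodes the other short granulin and was measured with fewer reads. It had 238, 31 and 197 counts in old and 16, 5 and 3 counts in young ventricles, in the same order of replicates. These were 10.8, 1.66 and 8.14 CPM in old and 0.801, 0.242 and 0.153 CPM in young ventricles. The groups did not overlap here either, but old replicate 3 was only 2.07 times the highest young library. Means were 6.86 ± 4.70 CPM in old and 0.399 ± 0.351 CPM in young ventricles (SD, n = 3 each), a 17.2-fold ratio and a log2 fold change of 4.09 (SE 0.78). The 3 counts in young replicate 5 were at the limit that a count of 0 allows. The log2 fold change lay between 3.61 (without old replicate 1) and 5.09 (without young replicate 1) with a library left out.

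*grna* (ENSDARG00000004954), a progranulin gene, had 2770, 306 and 1372 counts in old and 369, 229 and 115 counts in young ventricles. These were 126, 16.4 and 56.7 CPM in old and 18.5, 11.1 and 5.87 CPM in young ventricles. The groups overlapped, since old replicate 3 lay below young replicate 1, while the other old libraries were above every young one. The mean was 66.2 ± 55.2 CPM in old and 11.8 ± 6.33 CPM in young ventricles (SD, n = 3 each), a 5.61-fold ratio with a log2 fold change of 2.49 (SE 0.65). It was 1.63 without old replicate 1 and 2.98 without young replicate 1.

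*grnb* (ENSDARG00000025081), the other progranulin gene, stayed near one level. It had 184, 150 and 292 counts in old and 179, 142 and 175 counts in young ventricles. These were 8.34, 8.03 and 12.1 CPM in old and 8.96, 6.86 and 8.94 CPM in young ventricles. The groups overlapped, and only old replicate 5 was above all young libraries. Means were 9.48 ± 2.25 and 8.25 ± 1.21 CPM (SD, n = 3 each), and the log2 fold change was 0.20 (SE 0.24).

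**Figure D1:**
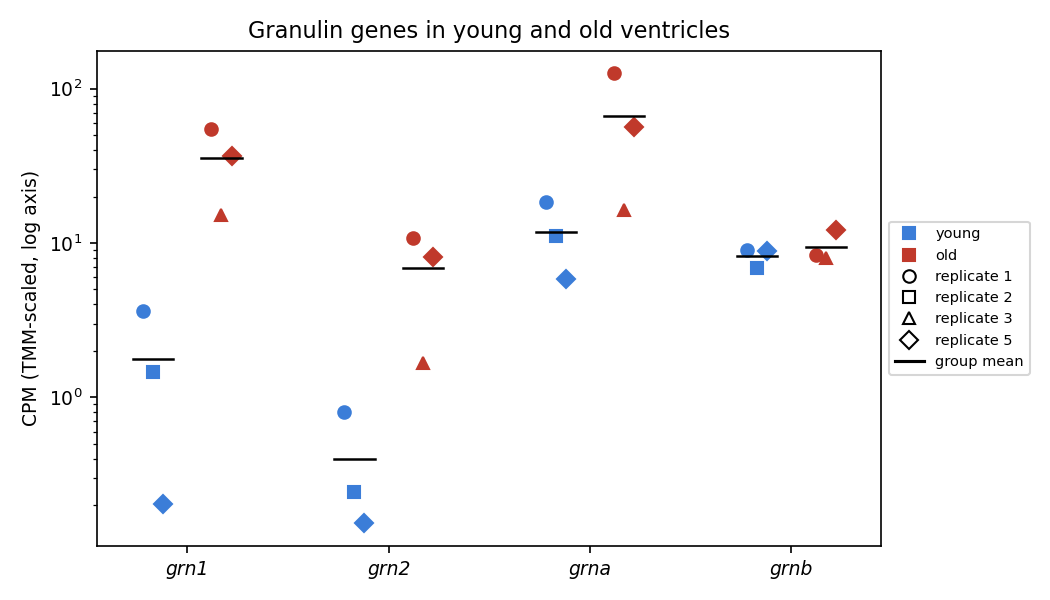
CPM of the 4 granulin genes (log axis) in each of the 3 old and 3 young libraries, with symbols for the replicate numbers and bars for the group means. For *grn1* the old libraries sit between 15.2 and 55.0 CPM, all above the young ones, and for *grnb* old and young libraries lie together between 6.86 and 12.1 CPM.

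Of the 4 granulin genes, 1 (*grn1*) passed this threshold of edgeR's test, beside 0.519% of all tested genes that were higher in old ventricles, and 2 (*grn1* and *grn2*) had groups that did not overlap, beside 10.4% of all genes. Nothing is read from these counts, since the genes were chosen for this contrast. *grn1* was the member just inside the threshold and *grn2* the one just outside it, with almost the same log2 fold change and SE. The call of *grn1* was lost in several settings, with 0 of the 4 genes past the threshold without young replicate 1, 2 or 5, where its log2 fold change was 5.42, 4.2 and 3.8, and with all libraries under a minimum of 10 reads, under filterByExpr or with bias-adjusted deviances. Without old replicate 1, 2 granulin genes passed among 412 genes in all, and without old replicate 3, 3 passed among 282. With DESeq2's Wald test 3 of the 4 genes passed, all but *grnb*, beside 4.24% of its genes that were higher in old ventricles.

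The composition of the granulin reads differed between the ages. The share of a gene in the granulin reads depends on the length of its transcript, which was not used here, so shares were compared between libraries and not between genes. The 4 genes together summed to 200, 41.2 and 114 CPM in old and 31.9, 19.6 and 15.2 CPM in young ventricles. Of all granulin counts, the short forms *grn1* and *grn2* made up 32.9% in old replicate 1 (95% Clopper-Pearson interval 31.6 to 34.4%), 40.8% in old replicate 3 (37.3 to 44.3%) and 39.5% in old replicate 5 (37.7 to 41.3%). They made up 14.0% in young replicate 1 (11.4 to 16.9%), 8.62% in young replicate 2 (6.08 to 11.8%) and 2.36% in young replicate 5 (0.953 to 4.8%, 7 of 297 counts). Old and young libraries did not overlap, and these intervals cover counting error only.

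The CPM of the short forms over that of the progranulins was 0.491, 0.689 and 0.653 in old and 0.162, 0.0943 and 0.0241 in young ventricles. On the log2 scale this ratio was -0.73 ± 0.26 in old and -3.80 ± 1.42 in young ventricles (SD, n = 3 each), a difference of 3.07. The spread lay on the young side. Old replicate 3, which had the lowest *grn1*, *grn2* and *grna* of the old libraries, had the highest ratio of all 6.

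**Figure D2:**
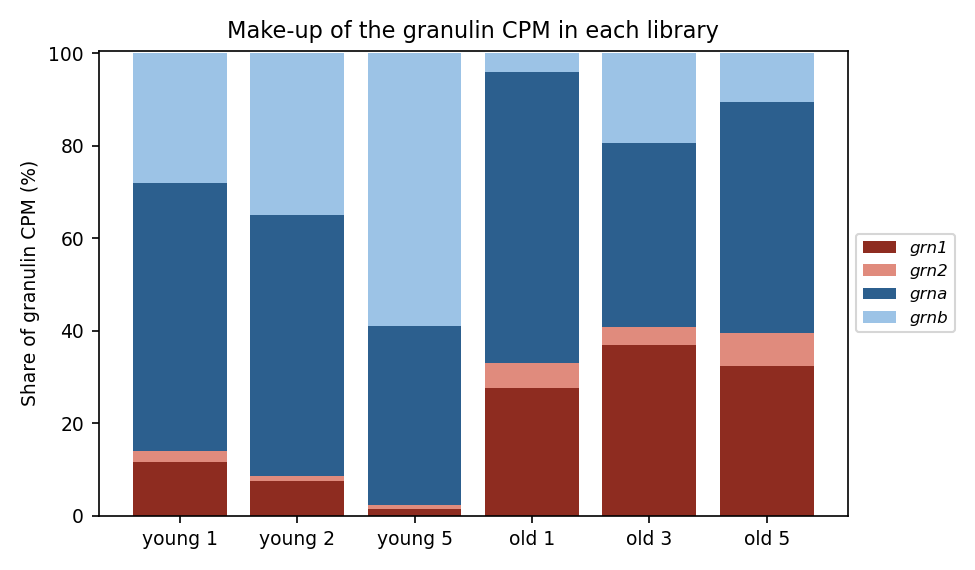
Share of the summed CPM of the 4 granulin genes taken by each gene (percent, stacked to 100) in each of the 6 libraries. The share of *grn1* is between 27.5 and 36.8% in the 3 old libraries and between 1.35 and 11.5% in the 3 young ones, while that of *grna* overlaps between the ages.

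Gene by gene, *grn1* took 27.5, 36.8 and 32.3% of the summed granulin CPM in old and 11.5, 7.39 and 1.35% in young ventricles. *grnb* went the other way, with 4.18, 19.5 and 10.6% in old and 28.1, 35 and 58.9% in young ventricles, although its own CPM was nearly level. *grna* took 50.8% ± 11.6 in old and 51.0% ± 10.7 in young ventricles (SD, n = 3 each). The share of *grna* thus differed by less than the spread between replicates, while those of *grn1* and *grnb* did not overlap between the ages. Within the short forms, *grn1* made up 83.6, 90.1 and 81.9% of the counts in old ventricles and 82.0 and 85.7% in young replicates 1 and 2. In young replicate 5 it made up 57.1% (4 of 7 counts), with a Clopper-Pearson interval of 18.4 to 90.1%, so a different split could not be detected at this depth.

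Libraries of the same age differed widely in 3 of the 4 genes. The SD of log2(CPM + 0.5) among old libraries was 0.93 for *grn1*, 1.28 for *grn2* and 1.46 for *grna*, against a median of 0.26 over the 13262 genes with at least 1 CPM, and 5.58%, 2.57% and 1.72% of those genes had an SD at least as large. For *grnb* it was 0.31, an SD that 42.2% of genes reached. Among young libraries the SD was 1.28, 0.53, 0.79 and 0.21 for *grn1*, *grn2*, *grna* and *grnb*, against a median of 0.24. *grna* ranged 7.66-fold among old libraries and *grn1* 17.9-fold among young ones. For *grn1*, *grn2* and *grna*, replicate 1 was the highest and replicate 3 the lowest old library, and replicate 1 the highest and replicate 5 the lowest young one. *grnb* followed neither order.

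Macrophage, pan-leukocyte and T and NK cell markers had an order of libraries close to that of these 3 genes, while neutrophil and erythrocyte markers did not. The T and NK cell markers summed to 14.8, 2.30 and 9.25 CPM in old and 3.20, 1.74 and 1.84 CPM in young ventricles. Macrophages engulf debris and pathogens, and 18 of 20 tested macrophage markers were estimated higher in old fish, with a median log2 fold change of 1.7 against 0.02 over all tested genes. By edgeR's quasi-likelihood test (Benjamini-Hochberg) 0 of the 20 passed, 15 had an unadjusted p-value under 0.05 and were higher (8.64% of all genes), and DESeq2 called 10 (4.24% of its genes, higher in old). Their summed CPM was 1070, 295 and 756 in old and 288, 215 and 150 in young ventricles, in the order of libraries seen for *grna* except that old replicate 3 was just above young replicate 1. Most of this sum came from *cd74a* and *cd74b*, antigen presentation genes that B cells also express. Without these genes it was 466, 78.6 and 223 CPM in old and 98.7, 61 and 38 CPM in young ventricles, so that old replicate 3 was below young replicate 1, as in *grna*. Of the 3 copies of *MPEG1*, a macrophage pore protein gene, 1 (ENSDARG00000078569) was at 0 in every library but young replicate 5, where it had 0.0511 CPM. ENSDARG00000055290 had 19.7, 4.98 and 8.39 CPM in old and 3.90, 3.04 and 1.74 CPM in young ventricles, without overlap. ENSDARG00000043093 had 8.48, 6.42 and 22.3 CPM in old and 6.56, 3.67 and 1.28 CPM in young ventricles, so here the groups overlapped and old replicate 5 was highest. The scavenger receptor gene *marco* had 214, 13.4 and 91.6 CPM in old and 32, 9.18 and 5.57 CPM in young ventricles. Most of the gap between old replicate 3 and young replicate 1 in the sum without *cd74a* and *cd74b* came from this 1 gene. *MPEG1* and *marco* were named after their values had been seen.

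Pan-leukocyte markers, shared by white blood cells, summed to between 95.6 and 192 CPM in old and between 46.9 and 70.4 CPM in young ventricles. All 10 had a higher estimate and 1 passed, *LCP1*, the gene of the actin-bundling protein L-plastin, with a log2 fold change of 1.78 (SE 0.33) and an adjusted p-value of 0.0483 by edgeR's quasi-likelihood test (Benjamini-Hochberg). It passed in 6 of 13 other settings of the test. At an unadjusted p-value under 0.05, 9 of the 10 were higher (8.64% of all genes), 8 did not overlap between the ages (10.4%), and DESeq2 called 7 (4.24%). Neutrophil markers summed to 62.8, 42.9 and 195 CPM in old and 46.3, 50.1 and 39.7 CPM in young ventricles, so that only old replicate 5 stood well above the young libraries, which was not the order of the granulin genes. In every library but old replicate 5 most of this sum came from *nccrp1*, which was nearly level, from 29.1 to 40 CPM over all libraries. Gene by gene, all 11 tested neutrophil markers had a higher estimate in old fish, with a median log2 fold change of 1.89. Of these, 5 were higher at an unadjusted p-value under 0.05 in edgeR (8.64% of all genes), and 0 passed after adjustment. In 3 of them, every old library was above all young ones (10.4%). Erythrocyte markers went the opposite way, between 466 and 490 CPM in old and between 871 and 2630 CPM in young ventricles, with 2 of 7 past the threshold of edgeR's test as lower and 6 in DESeq2 (0.338% and 2.77% of all genes). In bulk samples, fewer cells of a type and less RNA per cell cannot be told apart, and the part of these cell types in the granulin values was not tested.

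Set against the macrophage marker sum, a comparison chosen after the values had been seen, the short forms were higher in old ventricles and the progranulins depended on the markers used. *grn1* had 5.14, 5.13 and 4.86 CPM per 100 CPM of macrophage markers in old and 1.27, 0.676 and 0.136 in young ventricles. *grn2* had 1.01, 0.562 and 1.08 in old and 0.278, 0.113 and 0.102 in young ventricles. The groups did not overlap for either short form. With this sum *grn1* was nearly level across the old libraries. It was not level per 100 CPM of the sum without *cd74a* and *cd74b* (11.8, 19.3 and 16.5) or of pan-leukocyte markers (28.7, 15.8 and 23). *grna* had 11.7, 5.55 and 7.5 in old and 6.42, 5.16 and 3.91 in young ventricles, and here the groups overlapped. *grnb* was lower per marker CPM in every old library, at 0.780, 2.72 and 1.6 against 3.12, 3.20 and 5.96. Between the ages, its own mean log2 CPM differed by 0.19 and that of the marker sum by 1.56, so this ratio mainly mirrors the marker sum. The share of all genes without overlap in such ratios was not computed. Without *cd74a* and *cd74b*, the groups again did not overlap for *grn1* (11.8 to 19.3 in old, 0.538 to 3.7 in young ventricles) and *grn2* (2.11 to 3.65 and 0.396 to 0.811). For *grna* they then no longer overlapped (20.8 to 26.9 and 15.5 to 18.7), and for *grnb* they did (1.79 to 10.2 and 9.08 to 23.5). Per CPM of pan-leukocyte markers the short forms were also higher in every old library, and *grna* overlapped. Old replicate 3 and young replicate 1 had nearly equal sums of all macrophage markers, 295 and 288 CPM. Without *cd74a* and *cd74b* the sums were less alike, at 78.6 and 98.7 CPM. Between these libraries *grn1* was 15.2 against 3.65 CPM, *grn2* 1.66 against 0.801, *grna* 16.4 against 18.5 and *grnb* 8.03 against 8.96, with 1 library on each side and hence no replicate check. Young replicate 1 was also the library that stood apart in some atrial genes.

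**Figure D3:**
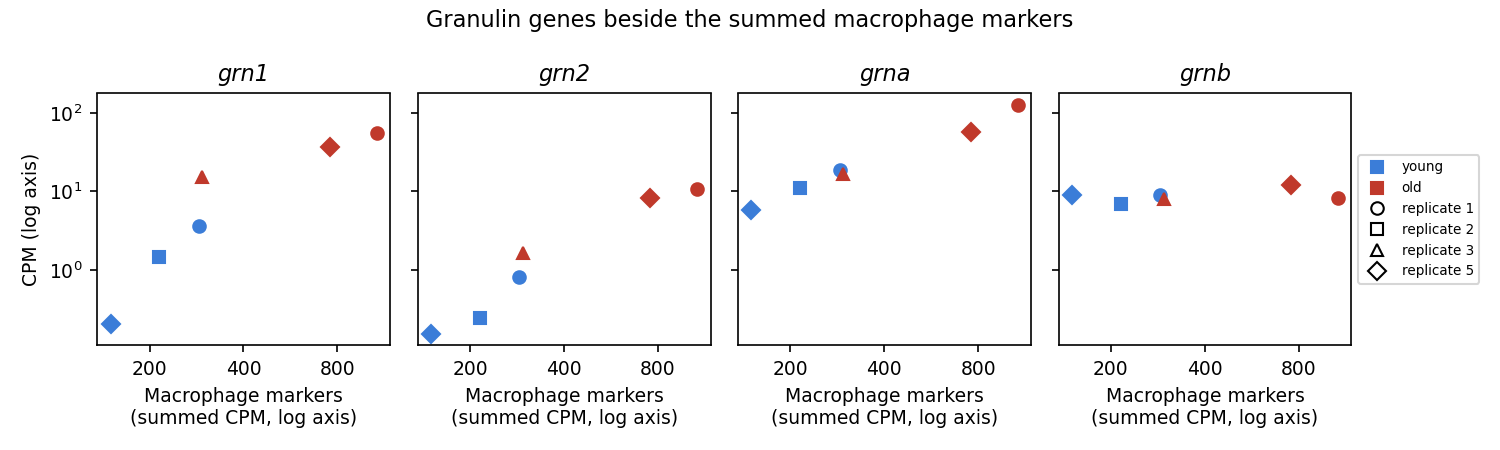
CPM of each granulin gene against the summed CPM of the macrophage markers in the same library (both log axes), with the 3 old libraries in red and the 3 young ones in blue. At marker sums of 295 and 288 CPM the points of old replicate 3 and young replicate 1 are apart for *grn1*, at 15.2 and 3.65 CPM, and close together for *grna*, at 16.4 and 18.5 CPM. Without *cd74a* and *cd74b* these sums were 78.6 and 98.7 CPM.

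Genes of the sorting, cleavage and lysosomal work of progranulin were looked at from lists drawn from general knowledge. Of 67 tested genes, 48 had a higher and 19 a lower estimate in old fish, with a median log2 fold change of 0.30 against 0.02 over all tested genes. By edgeR's quasi-likelihood test (Benjamini-Hochberg) 0 passed in either direction, beside 0.519% of all genes higher and 0.338% lower. At an unadjusted p-value under 0.05 there were 16 higher and 4 lower, beside 8.64% and 6.5% of all genes, and DESeq2 called 6 higher and 2 lower, beside 4.24% and 2.77% of its genes. The higher ones were *ctss2.1*, *ctss2.2*, *TPP1* and 1 copy each of *LRP1*, *MMP14* and *NPC2*. A copy each of *TMEM106B* and *NOTCH1* was lower. Their adjusted p-values in DESeq2's Wald test ran from 0.00119 (*LRP1*) to 0.0172 (*TPP1*). The groups did not overlap in 14 higher and 7 lower genes, beside 10.4% and 9.66% of all genes. Many symbols in these lists are the human-style names of the name table, so that a symbol can stand for several zebrafish copies.

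Of the sorting genes, 8 had a higher and 6 a lower estimate. *PSAP*, the gene of prosaposin that carries progranulin to the lysosome, had the most reads, with 303 ± 32.2 CPM in old and 288 ± 47.7 CPM in young ventricles (SD, n = 3 each), a difference within the replicate spread. *SORT1*, the gene of sortilin, had log2 fold changes of 1.07 (ENSDARG00000029402, adjusted p = 0.284 by edgeR's quasi-likelihood test (Benjamini-Hochberg)) and 0.37 (ENSDARG00000056252, adjusted p = 0.618). The first copy had 8.93, 23.4 and 10.1 CPM in old and 5.41, 4.35 and 10.5 CPM in young ventricles, so its highest value was in old replicate 3, where *grn1*, *grn2* and *grna* had their lowest old values. The endocytic receptor gene *LRP1* (ENSDARG00000097827) had 15.7, 27.7 and 9.79 CPM in old and 5.91, 5.17 and 5.31 CPM in young ventricles, with a log2 fold change of 1.69 and an adjusted p of 0.0629 in edgeR. Its other copy (ENSDARG00000029146) had overlapping groups, with a log2 fold change of 0.57 and an adjusted p of 0.514 in edgeR. *TMEM106B*, a lysosomal membrane protein gene linked in humans to progranulin disease, had a lower estimate in both copies, with log2 fold changes of -0.88 (ENSDARG00000035949, adjusted p = 0.102) and -0.23 (ENSDARG00000101936, adjusted p = 0.596) in edgeR.

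In the list of proteases and inhibitors, 18 of 19 genes had a higher estimate, and the median log2 fold change was 0.62, or 0.39 over the 15 with a mean of at least 1 CPM (all such genes, -0.04). The lower gene was *HDLBP*, the gene of the lipoprotein-binding protein vigilin, which is neither a protease nor an inhibitor of one. The 18 higher genes are proteases, but not all of their estimates were beyond their error, as with 0.10 (SE 0.32) for *ctsla*. At an unadjusted p-value under 0.05 in edgeR, 8 were higher (8.64% of all genes), and 0 passed after adjustment. *HDLBP* had 807 CPM in old and 954 CPM in young ventricles (log2 fold change -0.24, SE 0.12, without overlap), and *ctsla*, a cathepsin L gene, had 118 ± 22.9 and 110 ± 57.0 CPM (SD, n = 3 each). The asparagine endopeptidase gene *LGMN* and the cathepsin genes *CTSD* and *CTSB*, whose products cut progranulin in mammals, had log2 fold changes of 0.06, 0.21 and 0.39. The cathepsin S genes had larger estimates. *ctss1* (ENSDARG00000036940) had 0.498, 0.107 and 1.78 CPM in old and 0.100, 0 and 0 CPM in young ventricles. It was under the floor of 3 counts in every young library and in old replicate 3, so its fitted log2 fold change of 4.37 rests on few reads. *ctss2.1* had 26.2, 8.73 and 14.0 CPM in old and 4.61, 6.81 and 3.42 CPM in young ventricles, and *ctss2.2* had 36.4, 7.87 and 13.6 CPM in old and 5.91, 4.01 and 4.39 CPM in young ventricles. In *ctss2.1* and *ctss2.2* the old libraries were above all young ones, with replicate 1 highest and replicate 3 lowest as in *grna*, and the adjusted p-values were 0.0928 and 0.102 by edgeR's quasi-likelihood test. *MMP14* (ENSDARG00000008388), a membrane-bound matrix protease gene, had another order, with 17.4, 46.6 and 24.1 CPM in old and 14.1, 7.39 and 8.78 CPM in young ventricles. *LRP1*, *SORT1*, *LGMN*, *CTSD*, *CTSB*, the cathepsin S genes and *MMP14* were named after their values had been seen, as was *TMEM106B* (ENSDARG00000035949).

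Of 7 cell surface receptor genes, 4 had a higher and 3 a lower estimate. Both copies of *NOTCH1*, a receptor of cell-to-cell signalling, had a lower estimate. The stronger one (ENSDARG00000052094) had 56.9, 70.4 and 64.9 CPM in old and 129, 102 and 102 CPM in young ventricles, with a log2 fold change of -0.79 (SE 0.18) and an adjusted p of 0.0802 by edgeR's quasi-likelihood test (Benjamini-Hochberg). The tumour necrosis factor receptor gene *tnfrsf1a* had 45.1 ± 11.9 CPM in old and 43.6 ± 12.7 CPM in young ventricles (SD, n = 3 each).

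Among 27 lysosome and lipid genes, 18 had a higher and 9 a lower estimate, with a median log2 fold change of 0.23. The lysosomal membrane protein gene *LAMP2* had 133 CPM in old and 173 CPM in young ventricles (log2 fold change -0.38, adjusted p = 0.283 in edgeR), and *TFEB*, the gene of a transcription factor of lysosomal genes, had 57.9 and 72.0 CPM (-0.31, adjusted p = 0.402). The old libraries were below all young ones in both. *GPNMB*, a gene that rises in mammalian macrophages with lysosomal stress, was low, at 0.849 ± 0.740 CPM in old and 0.699 ± 0.609 CPM in young ventricles (SD, n = 3 each), and was named after its values had been seen. Higher in every old library were *NPC2* (ENSDARG00000096979), a gene of lysosomal cholesterol export, with 4.44, 1.5 and 1.69 CPM in old and 0.701, 0.676 and 0.357 CPM in young ventricles, and *TPP1*, a lysosomal peptidase gene, with 24.7, 10.2 and 15.3 CPM in old and 7.51, 6.91 and 7.25 CPM in young ventricles. Their log2 fold changes were 2.13 and 1.21, with adjusted p-values of 0.112 and 0.107 in edgeR and 0.0151 and 0.0172 in DESeq2, the only calls of DESeq2 in this list. They too were named after their values had been seen. The other copy of *NPC2* (ENSDARG00000090912) had more reads, with 40.4 CPM in old and 30.8 CPM in young ventricles. Its groups overlapped, with a log2 fold change of 0.39 and an adjusted p of 0.411 in edgeR. The list as a whole thus held no gene with a change past the threshold of edgeR's test.

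**Figure D4:**
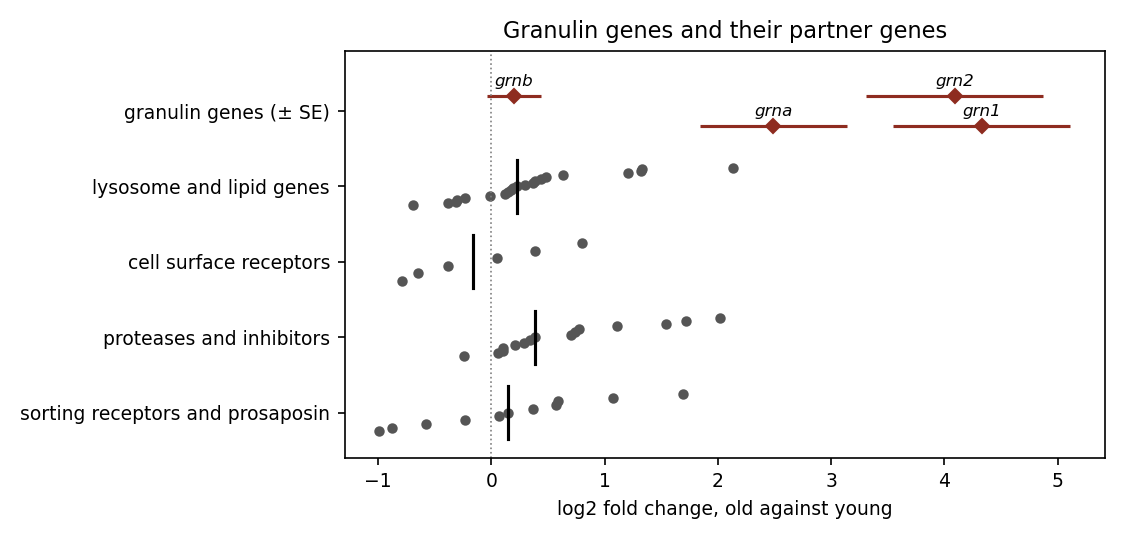
Log2 fold change, old against young, of the 53 partner genes with a mean of at least 1 CPM, grouped by role (points, with a bar at each group's median), and of the 4 granulin genes (diamonds, ± SE). The group of proteases and inhibitors runs from -0.24 (*HDLBP*) to 2.02 with a median of 0.39, and *grn1* and *grn2* are at 4.33 and 4.09. Genes under 1 CPM, such as *ctss1*, are not plotted.

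On the chromosome, *grn1* and *grn2* stood side by side in the gene order of the GRCz12tu assembly, where the name table calls them grna.1 and grna.2, while *grna* and *grnb* each stood elsewhere. Beyond the pair, *clxn*, the gene of the cilia protein calaxin, had a log2 fold change of -0.49, *rbm48*, an RNA-binding protein gene, of 0.16, *cdk6*, a cell cycle kinase gene, of 0.65 and *fam133b* of 0.12, all with SE up to 0.83. None of these 4 passed edgeR's test (adjusted p from 0.618 to 0.814). Next to *grna*, the gene *ifi35*, known as interferon-induced in mammals, had 17.8 CPM in old and 7.15 CPM in young ventricles without overlap (10.4% of all genes). Its log2 fold change was 1.31 (SE 0.29, adjusted p = 0.0816 by edgeR's quasi-likelihood test (Benjamini-Hochberg)). The ribosomal protein gene *rpl27* and *rundc1* on the other side had 0.17 and 0.09, and *bcat2*, a branched-chain aminotransferase gene, had -0.39. In *rpl27* too the old libraries were above all young ones. Next to *grnb*, *pus3*, a pseudouridine synthase gene, had 1.7 (adjusted p = 0.322 in edgeR) and *map3k14b*, a kinase gene, 0.02, both with overlap of the groups. Reads that fitted several places had been discarded, so the split between the neighbouring short forms is uncertain where their sequences match. *grnas*, by its symbol a granulin antisense gene, had 8, 1 and 1 counts in old and 0, 0 and 1 counts in young ventricles. Its position was not looked up, and the reads had been counted by strand.

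The genes whose profiles over the 6 libraries were most like those of the granulin genes were found by the root mean square (RMS) difference of centred log2(CPM + 0.5) values among 12865 genes. Nearest to *grn1* were the complement gene *c4b* (0.71), *zgc:172106* (0.73) and *MFAP4* (0.83), a macrophage marker in zebrafish. Its distance to *grn2* was 0.86, to *grna* 1.09 and to *grnb* 2.19. The order of *grn2* and *grna* turned round with a pseudocount of 2 (0.83 and 0.70) and with centring on each age group's own mean (0.53 and 0.42). Among the nearest to *grn2* were *ifi44a1* (0.16) and the chemokine gene *ccl34b.4* (0.24), and *grna*, at 0.45, was closer than *grn1*. Among the nearest to *grna* were *si:ch211-283g2.5* (0.18) and the galectin gene *lgals9l1* (0.24). *grnb*, whose profile was nearly flat, had *TP53INP1*, *H6PD* and *FLOT2* at 0.06. These lists describe likeness over 6 libraries only, and with a pseudocount of 2 in place of 0.5, 1, 1, 0 and 2 of the 3 genes were shared for *grn1*, *grn2*, *grna* and *grnb*. The profiles hold the difference between the ages for which the granulin genes had been chosen. With centring on each age group's own mean, the nearest to *grn1* were *zgc:112970*, *ADAMTS15* and *gig2d*. Their log2 fold changes were -0.07, -0.21 and 1.61.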

How the data were processed

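Ventricle RNA of 6 samples (3 old, 3 young) was extracted with trizol, and poly(A)-selected stranded libraries were sequenced as single-end reads. Alignment to GRCz11 was done by the authors in STAR 2.5.4b, and featureCounts 1.6.3 counted by strand the reads with a unique position on each Ensembl gene, leaving out reads on several places or genes. The deposited counts were raw and covered 32520 genes. In the table, 0 columns were left without a sample.

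The 24835 genes with at least 1 read were scaled by TMM and fitted with edgeR 4.0.16 (quasi-likelihood test, Benjamini-Hochberg adjustment over all tested genes, threshold 0.05, R 4.3.3). DESeq2 1.42.0 and other filters, scalings, a replicate block and each library left out were alternatives. Members, lists and tests were chosen with earlier results of these data known. From each list, genes past the threshold were to be named, up to 4 by p-value, and where fewer than 2 passed, the 2 with the highest mean CPM. The 3 most alike genes and up to 2 neighbours on each side were named for each granulin gene. Results for some genes that this rule names are not reported here. Exceptions, and the ratios to macrophage markers, were chosen after the values had been seen. Symbols came from a name table covering 29201 genes and from RefSeq synonyms (*grn1*, *grn2*). The 69 partner symbols matched 68 genes, some symbols having several copies and some none. The marker lists for other cell types are summarised in the closing section. Figures were drawn with matplotlib 3.10.9.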

Additional observations from a re-analysis of the deposited data

How the results depend on the processing

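With edgeR's TMM fit 213 genes passed, 1 of them a granulin gene. This became 65 genes and 0 granulin genes with at least 10 reads in all, 111 and 0 with filterByExpr, 111 and 0 with bias-adjusted deviances, and 1229 and 3 with DESeq2's Wald test. With library size alone, which moved the median log2 fold change of expressed genes by 0.18, 225 genes, 2 granulin genes and 1 higher partner gene passed. DESeq2 called 6 higher and 2 lower partner genes. Leaving out each library in turn gave 19 genes (without young replicate 2) to 412 (without old replicate 1), 0 to 3 granulin genes and 0 to 4 higher partner genes, and the log2 ratio of short forms over progranulins differed by 2.29 to 3.66. The cause of these changes was not tested. The log2 fold changes of *grn1*, *grn2* and *grna* were positive in all 14 alternatives, and that of *grnb* in 13. DESeq2's shrunken values were 1.26 for *grn1*, 1.98 for *grn2* and 1.48 for *grna*, which put *grna* above *grn1*. Old and young samples share the replicate numbers 1 and 5, but the deviations of same-numbered samples correlated with -0.05 and 0.04, so they were not taken as pairs. With the replicate block 126 genes, 3 granulin genes and 1 higher partner gene passed. Centring on each age group's own mean kept 0, 1, 1 and 0 of the 3 genes most like *grn1*, *grn2*, *grna* and *grnb*. Ratios per kb of coding length and a count of protein repeats were not run, since no lengths or sequences were used here. Young counts of *grn1* and *grn2* down to 4 and 3 limit the precision of their folds.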

Other observations

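Other cell type lists had these values. B cell markers summed to 20, 13.9 and 25.9 CPM in old and 0.751, 1.59 and 0.204 CPM in young ventricles, with 1 of 8 past the threshold, the immunoglobulin heavy chain gene *ighm*. Nearly all of the old sum was *ighm*, with 19.1, 13 and 24.9 CPM, while *cd79a*, *cd79b* and *ighd* were near 0 in both ages, with log2 fold changes of 0.10, -0.10 and 0.30. Of the 8 genes 7 had a higher and 1 a lower estimate, and 2 were higher at an unadjusted p-value under 0.05 in edgeR. The low genes were not all flat, as *igic1s1* had 0.544, 0.321 and 0.165 CPM in old and 0.1, 0.0483 and 0 CPM in young ventricles. T and NK cell markers summed to 14.8, 2.30 and 9.25 CPM in old and 3.20, 1.74 and 1.84 CPM in young ventricles, with 0 of 11 past it in edgeR, 6 higher at an unadjusted p-value under 0.05 and 2 in DESeq2. Of 7 erythrocyte markers 2 passed as lower, the globin gene *hbaa1* and the blood transcription factor gene *gata1a*. Of the thrombocyte, epithelium and fibroblast lists (8, 10 and 11 genes tested) 1 gene each passed edgeR's test. These were *gp9* and *GRHL2* as lower and a copy of *FN1* as higher. Of all tested genes, 0.519% passed as higher and 0.338% as lower. In these 3 lists 3, 7 and 6 genes had a higher and 5, 3 and 5 a lower estimate. DESeq2 called 1, 0 and 2 of them as higher and 2, 1 and 0 as lower. None passed in edgeR of the neutrophil, liver, adipocyte, cardiomyocyte, atrium or endothelium lists (11, 11, 10, 10, 6 and 7 genes tested), in which 5, 2, 2, 0, 1 and 0 genes were higher and 0, 1, 0, 2, 0 and 0 lower at an unadjusted p-value under 0.05, and DESeq2 called 2, 1, 0, 0, 0 and 0. Over all genes these shares were 8.64% higher and 6.5% lower, and 4.24% higher and 2.77% lower in DESeq2. The liver list was highest in old replicate 5, at 40.3 CPM against 5.31 to 11 CPM in the other libraries, and the granulin genes were highest there only in *grnb*. Most of this liver sum came from 1 gene, *tfa*, at 38.1 CPM in old replicate 5. *ambp* was also highest there, at 1.69 CPM, while *fabp10a*, at 0.289 CPM, lay within the range of the other libraries.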
